A study of Mus musculus with 7 samples.

Results

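The nebulin family and the proteins that bind the pointed end of the actin filament were described here in left ventricles of mice with a missense change in titin. The 9 genes were chosen by family name, with the results of A178D against WT in these data already known. They are *Neb*, *Nebl*, *Nrap* and *Lasp1* of the nebulin family, the leiomodins *Lmod2* and *Lmod3*, and the tropomodulins *Tmod1*, *Tmod3* and *Tmod4*. These are 9 of the 20927 genes of the count table, and all 9 passed the filter on low counts, as did 13894 genes of the table. *Lmod1*, left out as a smooth muscle gene, and *Tmod2*, which was not listed, are given beside them.

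Left ventricular RNA was sequenced from 3 WT mice (replicates 1, 3 and 4) and from 4 mice homozygous for titin A178D (replicates 1 to 4), all of strain C57BL/6J and with 1 library per heart. The change swaps an alanine near the amino terminus of titin, in the part that binds telethonin at the Z-disc, for an aspartate. It was made by CRISPR in C57BL/6N embryonic stem cells and is carried in every cell, and the mice were then backcrossed to C57BL/6J. The titin gene *Ttn* lies on chromosome 2, as do *Neb* and *Nebl*. Whether the A178D mice kept C57BL/6N sequence near *Ttn* was not tested. The age and the sex of the sequenced mice are not given in the sources used here. The WT libraries held between 41102868 and 54245530 counts and the A178D libraries between 33080675 and 52345529. Levels are given as CPM, which are counts relative to the library size after TMM scaling, and fold changes as log2 of A178D over WT from edgeR's quasi-likelihood fit, with the standard error. A gene was called where its Benjamini-Hochberg adjusted p over all tested genes was under 0.05.

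The labelled tissue was checked with marker lists, and of each list the gene with the highest mean CPM over the 7 hearts is named, which is not a comparison per length. The 9 ventricular cardiomyocyte markers summed to between 101740 and 111710 CPM in a heart, with *Myh6* highest by CPM. The 7 atrial myocyte markers summed to between 230.3 and 712.1 CPM. Of these, *Bmp10* was at 0 in every heart, and *Myl7* and *Sln* stayed under 1 CPM. The other 4 were read, *Nppa* at 109.2 to 587.8 CPM, *Myh7b* at 95.8 to 119.0, *Myl4* at 1.85 to 4.02 and *Dkk3* at 2.20 to 3.81. The sources name no sequencing batch.

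Nebulin is a giant protein that lies along the thin filament of skeletal muscle, from the Z-disc to near the pointed end, and helps to set filament length and stiffness there. In cardiac muscle the shorter nebulette is the main Z-disc member of the family, N-RAP takes part in myofibril assembly and at intercalated discs, and LASP1 is a small actin-binding adaptor of many cell types. Tropomodulins cap the pointed end and block its growth, whereas leiomodins bind the same end and allow it to lengthen.

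In edgeR's fit 1 of the 9 genes was called higher in A178D, *Neb*, and 1 was called lower, *Tmod3*. Over all tested genes 145, or 1.04%, were called higher and 182, or 1.31%, lower, which makes 2.35% in either direction. The WT and A178D hearts did not overlap for 2 of the 9, again *Neb* and *Tmod3*, and for 16.1% of all tested genes. The genes were picked with this contrast in view, so nothing is read from these counts. The median log2 fold change of the 9 was -0.06, beside 0.0023 over all tested genes, and 4 of the 9 values lay above 0. RNA of whole tissue cannot tell fewer cells of a type from less RNA per cell, here or for any value given further on.

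**Figure D1:**
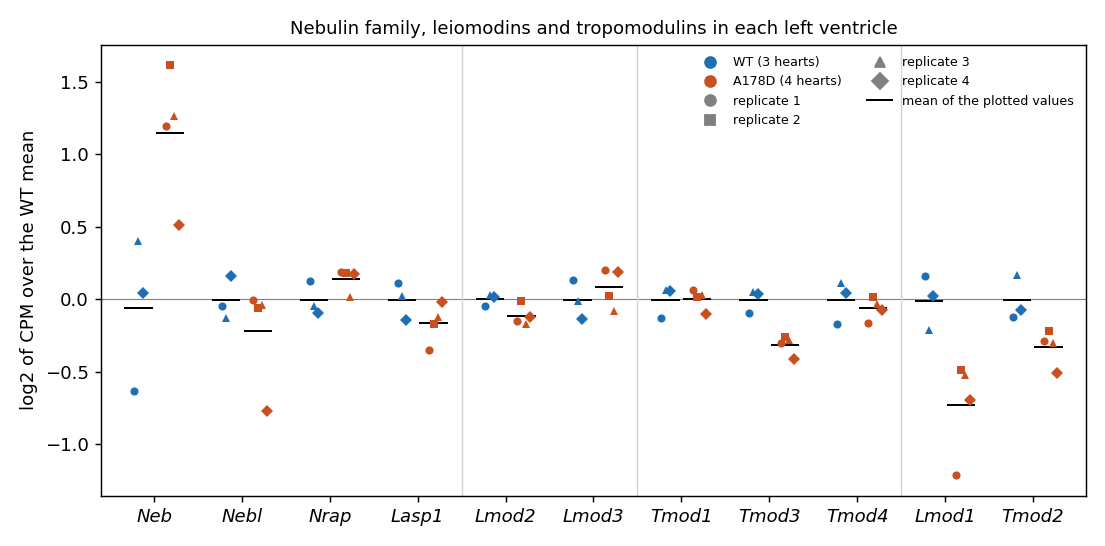
Each point is the log2 ratio of a heart's CPM to the mean of the 3 WT hearts for the 9 genes, left of the last vertical line, and for *Lmod1* and *Tmod2*. Colours mark the genotype, shapes the replicate number and bars the mean of the points. The A178D hearts lie above all WT hearts for *Neb* and below them for *Tmod3*, *Lmod1* and *Tmod2*, and replicate 4 lies apart for *Nebl*.

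*Neb* (ENSMUSG00000026950) lies on the minus strand of chr2:52136647-52378474 (GRCm38) and has a longest transcript of 22489 bases. Its counts were 236, 500 and 291 in WT replicates 1, 3 and 4 and 643, 1121, 712 and 321 in A178D replicates 1 to 4. After scaling these were 4.49, 9.17 and 7.16 CPM in WT and 15.9, 21.3, 16.7 and 9.91 CPM in A178D. All 4 A178D hearts were above all 3 WT hearts, but by little at the nearest point, where A178D replicate 4 stood just over WT replicate 3. The means were 6.94 ± 2.35 CPM (SD, n = 3) and 15.9 ± 4.66 CPM (SD, n = 4). This gave a log2 fold change of 1.21 (standard error 0.24). *Neb* was no longer called in the fits without WT replicate 4 (1.23), without A178D replicate 1 (1.21) or without A178D replicate 3 (1.19), whose log2 fold changes are in parentheses. Hearts of the same genotype differed more for *Neb* than for any other of the 9 genes, with a within-genotype SD of 0.48 on the log2 scale, beside a median of 0.15 over all tested genes. This SD lay at the 91.2 percentile of all tested genes and at the 99.0 percentile of those nearest to *Neb* in abundance.

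Skeletal muscle, where nebulin is abundant, was looked for through its own markers. Of 14 such genes, 10 stayed under 1 CPM in every heart, among them *Myh1*, *Myh2* and *Myh4*, which encode the fast skeletal myosins, and *Myf6* was at 0 throughout. The list summed to 32.9, 37.2 and 33.0 CPM in WT replicates 1, 3 and 4 and to 40.2, 36.7, 37.4 and 36.5 CPM in A178D replicates 1 to 4. Nearly all of it was *Mybpc2*, a myosin-binding protein, at 29.7 ± 1.57 CPM in WT (SD, n = 3) and 32.3 ± 1.59 CPM in A178D (SD, n = 4), and without this gene the sum ranged from 3.90 to 5.79 CPM. EdgeR called 0 of the 7 tested genes of the list, as did DESeq2 and limma-voom, and 1, or 14.3%, had an unadjusted p under 0.05 in edgeR and DESeq2 and 2 in limma-voom, where the share over all tested genes was 16.7% in edgeR. The 1 in edgeR, named after its values were seen, was *Atp2a1*, the calcium pump of fast skeletal fibres, at 0.856, 0.935 and 1.21 CPM in WT replicates 1, 3 and 4 and at 2.50, 1.78, 1.87 and 1.02 CPM in A178D replicates 1 to 4. Its genotypes overlapped. The log2 fold changes of the 7 tested markers were 1.03 for *Myod1*, 0.98 for *Tnnt3*, 0.86 for *Atp2a1*, 0.12 for *Mybpc2*, -0.14 for *Tnni2*, -0.18 for *Actn3* and -0.61 for *Mylpf*. Besides *Mybpc2* and *Atp2a1*, the markers that reached 1 CPM in any heart were *Tnni2*, at up to 2.13 CPM, and *Mylpf*, at up to 1.69 CPM. The markers too low to be tested also went both ways, *Myh2* from a mean of 0.194 CPM in WT to 0.0530 in A178D and *Tnnc2* from 0.0568 to 0.247. The part of skeletal muscle RNA in the values of *Neb* was not tested.

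*Neb* has a long transcript, and 2 libraries stood apart from the rest in the counts of long transcripts. In A178D replicate 4, the deviation from the mean of the libraries fell by 0.14 on the log2 scale with each doubling of transcript length, and the longest 10% of genes had a median deviation of -0.24. WT replicate 1 deviated the other way, with a slope of 0.08 and a median of 0.12 in the longest 10%, and the slopes of the other 5 libraries lay between -0.01 and 0.03. A fit corrected for the trends of each library with length and GC content, by offsets, gave *Neb* a log2 fold change of 1.32 (standard error 0.22). Without A178D replicate 4 it was 1.37, and without WT replicate 1 it was 0.97, and *Neb* was called in each of these 3 fits.

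*Nebl* (ENSMUSG00000053702), which encodes nebulette, lies on the minus strand of chr2:17343909-17731464, with a longest transcript of 8079 bases. It stood at 142.2, 134.3 and 164.0 CPM in WT replicates 1, 3 and 4 and at 146.2, 141.2, 143.3 and 86.1 CPM in A178D replicates 1 to 4. The first 3 A178D hearts lay within the range of the WT hearts, and replicate 4 was far below every other heart. The log2 fold change was -0.18 (standard error 0.15), and *Nebl* was not called. It was -0.03 without A178D replicate 4, -0.10 without WT replicate 4 and -0.09 with the length and GC offsets. *Ttn*, whose transcript is the longest of the sarcomere genes, was lowest in the same heart, with 7245, 6247 and 6486 CPM in WT replicates 1, 3 and 4 and 5360.5, 6174, 6489.5 and 4087 CPM in A178D replicates 1 to 4. Its log2 fold change was -0.27 (standard error 0.12), -0.15 without A178D replicate 4 and -0.14 with the offsets, and it was not called.

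*Nrap* (ENSMUSG00000049134; chr19:56320035-56390037, minus strand) was read at 1106 ± 92.2 CPM in WT (SD, n = 3) and at 1221 ± 69.5 CPM in A178D (SD, n = 4). The WT hearts ranged from 1035 to 1210.3 CPM and the A178D hearts from 1117 to 1262 CPM, so that the genotypes overlapped. Its log2 fold change of 0.14 (standard error 0.07) was not called, and was 0.21 without WT replicate 1 and 0.10 without WT replicate 4. Exons of *Nrap* overlap 268 bases of *Habp2* on the other strand, which had at most 0.0496 CPM in any heart. The library kit keeps the strand, but the sources do not say whether the counting used it.

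*Lasp1* (ENSMUSG00000038366; chr11:97799000-97838764, plus strand) stood at 58.5 ± 5.18 CPM in WT (SD, n = 3) and at 52.4 ± 4.99 CPM in A178D (SD, n = 4), a log2 fold change of -0.16 (standard error 0.09) that was not called. The value was -0.10 without WT replicate 1 or without A178D replicate 1, and -0.23 without WT replicate 4. The genotypes overlapped, with WT hearts from 52.9 to 63.1 CPM and A178D hearts from 45.9 to 57.9 CPM.

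Per kilobase of longest transcript, *Nrap* made up most of the family in the heart. Its share of the summed level of the 4 nebulin family genes ranged from 84.1 to 86.1% in WT hearts and from 85.8 to 89.2% in A178D hearts. *Neb* held 0.133 ± 0.0507% of this sum in WT (SD, n = 3) and 0.280 ± 0.0806% in A178D (SD, n = 4). In both genotypes *Neb* was thus a trace of the family, and its share ranged from 0.0781 to 0.178% in WT and from 0.173 to 0.363% in A178D, which overlap.

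*Lmod2* (ENSMUSG00000029683; chr6:24597762-24605414, plus strand), the main cardiac leiomodin, was read at 883, 926.9 and 917.9 CPM in WT replicates 1, 3 and 4 and at 820.4, 901.9, 809 and 837.1 CPM in A178D replicates 1 to 4. Only A178D replicate 2 reached the WT range. Its log2 fold change was -0.11 (standard error 0.06), which was not called, and with the length and GC offsets it was -0.17 (standard error 0.05), also not called. Its hearts of 1 genotype lay close together, with a within-genotype SD of 0.06 on the log2 scale. *Lmod3* (ENSMUSG00000044086; chr6:97238534-97252759, minus strand), better known from skeletal muscle, had 156.7 ± 14.7 CPM in WT (SD, n = 3) and 166.5 ± 15.6 CPM in A178D (SD, n = 4). The ranges of its hearts overlapped, from 142.7 to 172.0 CPM and from 148.0 to 180.3 CPM, and the log2 fold change of 0.09 (standard error 0.09) was not called. That value ranged from 0.02 without WT replicate 4 to 0.16 without WT replicate 1, with 0.05 without A178D replicate 1 or replicate 4 and 0.14 without A178D replicate 3, and was 0.03 with the offsets. EdgeR, DESeq2 and limma-voom called 0 of these 2 leiomodins, and 0 had an unadjusted p under 0.05 in these fits, although *Lmod2* had 0.00604 in edgeR with the offsets.

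The balance between the leiomodins was tilted to *Lmod2*. Per kilobase it held between 85.2 and 87.8% of their sum in WT hearts and between 83.6 and 86.4% in A178D hearts, which overlap.

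*Tmod1* (ENSMUSG00000028328; chr4:46038935-46116032, plus strand) encodes the tropomodulin that caps thin filaments of striated muscle. It stood at 267.0, 305.4 and 303.7 CPM in WT replicates 1, 3 and 4 and at 305.1, 294.9, 298.7 and 272.2 CPM in A178D replicates 1 to 4. The A178D hearts fell within the WT range. The log2 fold change was 0.0035 (standard error 0.07), not called, and its sign turned in some alternative fits, for example to -0.05 without WT replicate 1 and -0.02 with the length and GC offsets. Exons of *Tmod1* share 1287 bases with *Tstd2* on the other strand, which was read at 12.7 to 17.4 CPM.

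*Tmod3* (ENSMUSG00000058587; chr9:75497707-75559657, minus strand), the tropomodulin of most tissues, had 3424, 3926 and 2896 counts in WT replicates 1, 3 and 4 and 2271, 3060, 2448 and 1692 counts in A178D replicates 1 to 4. As CPM these were 65.1, 72.0 and 71.3 in WT and 56.3, 58.1, 57.3 and 52.3 in A178D. Every A178D heart was below every WT heart. The log2 fold change was -0.31 (standard error 0.07), between means of 69.5 ± 3.77 CPM (SD, n = 3) and 56.0 ± 2.59 CPM (SD, n = 4). *Tmod3* was no longer called in the fits without WT replicate 3 (-0.28), WT replicate 4 (-0.29), A178D replicate 1 (-0.31), A178D replicate 2 (-0.33) or A178D replicate 3 (-0.32), with their log2 fold changes in parentheses. It was called without WT replicate 1 and without A178D replicate 4, and not called with the replicate number as a block (-0.33).

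*Tmod4* (ENSMUSG00000005628; chr3:95124476-95129209, plus strand), the tropomodulin of skeletal muscle, was also read in the heart, at 27.5 ± 2.74 CPM in WT (SD, n = 3) and 26.4 ± 1.40 CPM in A178D (SD, n = 4). The genotypes overlapped, with 24.5 to 29.8 CPM in WT and 24.6 to 27.9 CPM in A178D hearts. Its log2 fold change of -0.06 (standard error 0.09) was not called, and was 0.0025 without WT replicate 3, -0.03 without A178D replicate 1, -0.04 without WT replicate 4, -0.13 without WT replicate 1 and -0.15 with the length and GC offsets.

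A comparison within each heart does not depend on the scaling of the libraries. Per kilobase, *Tmod3* held 13.8, 13.2 and 13.3% of the summed level of the 3 tropomodulins in WT replicates 1, 3 and 4, and 11.01, 11.4, 11.2 and 11.1% in A178D replicates 1 to 4. The genotypes did not overlap, as for the level of *Tmod3* itself. The size of this share depends on the length used. With merged exons as the length, a choice made after seeing the data, it was 6.48 ± 0.154% in WT (SD, n = 3) and 5.31 ± 0.0833% in A178D (SD, n = 4), again without overlap. With the longest transcript as the length, *Tmod1* made up between 69.7 and 70.3% in WT and between 71.6 and 74.0% in A178D hearts. The ratio of *Lmod2* to *Tmod1*, the main leiomodin to the main tropomodulin of these hearts, was 4.99 ± 0.257 per kilobase in WT (SD, n = 3) and 4.61 ± 0.341 in A178D (SD, n = 4). Its ranges, from 4.83 to 5.28 and from 4.30 to 4.91, overlapped.

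Of the relatives outside the 9, *Lmod1* (ENSMUSG00000048096) is the leiomodin of smooth muscle. It had 11.04, 8.55 and 10.04 CPM in WT replicates 1, 3 and 4 and 4.26, 7.06, 6.89 and 6.11 CPM in A178D replicates 1 to 4. All A178D hearts were below all WT hearts, and *Lmod1* was called lower, with a log2 fold change of -0.70 (standard error 0.16). It was called in 1 of the 7 fits that leave out a heart, that without A178D replicate 2 (-0.78), and the 7 values lay between -0.79 and -0.56. *Tmod2* (ENSMUSG00000032186), the tropomodulin of neurons, lies next to *Tmod3* on the same strand, at chr9:75565621-75611325. It was read at 7.95, 9.72 and 8.22 CPM in WT replicates 1, 3 and 4 and 7.09, 7.44, 7.00 and 6.08 CPM in A178D replicates 1 to 4, again with no overlap. Its log2 fold change of -0.32 (standard error 0.12) was not called, and was -0.21 with the length and GC offsets.

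Smooth muscle markers were lower in the A178D libraries together with *Tmod3* and *Lmod1*. Of the 7 markers, among them *Lmod1*, 6 were called lower and 0 higher in edgeR, with the same counts in DESeq2 and limma-voom. They had a median log2 fold change of -0.62. Their summed level was 707.9, 700.0 and 657.6 CPM in WT replicates 1, 3 and 4 and 428.2, 510.4, 530.4 and 518.9 CPM in A178D replicates 1 to 4, and no marker was at 0 in every heart. The actin gene *Acta2* changed by -0.59 and *Tagln* by -0.62, and each was called in all 7 fits that leave out a heart. *Myh11*, the smooth muscle myosin, changed by -0.67 and was not called without WT replicate 3 (-0.73) or WT replicate 4 (-0.71). *Mylk* (-0.49) was called in 2 of these fits, those without A178D replicate 3 or A178D replicate 4, and its values over the 7 lay between -0.57 and -0.38. *Cnn1* (-0.82) was called in 1, that without A178D replicate 4, with values between -0.96 and -0.63, and was not called with the replicate block (-0.85). The marker highest by CPM, *Smtn*, had a log2 fold change of -0.20 (standard error 0.08) and was not called, though with the length and GC offsets it was, at -0.22. Per kilobase *Acta2* was higher than *Smtn*, at 93.7 against 64.9 CPM per kilobase on average in WT. The part of smooth muscle cells in the values of *Tmod3* was not tested.

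**Figure D2:**
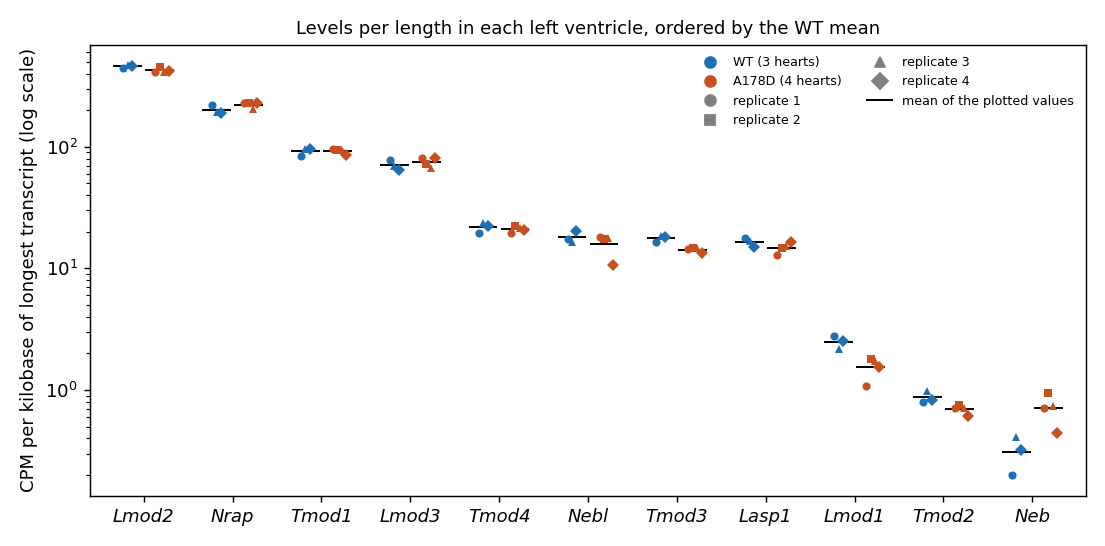
Levels of the 9 genes and of *Lmod1* and *Tmod2* are plotted on a log scale as CPM per kilobase of the longest transcript, for each heart, in the order of the WT means. Colours mark the genotype, shapes the replicate number and bars the group means. Levels run from 460.2 for *Lmod2* to 0.309 for *Neb* in WT, and *Tmod4*, *Nebl*, *Tmod3* and *Lasp1* lie close together on this length.

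Levels can be compared between genes only per length. In WT hearts *Lmod2* came first with 460.2 ± 11.7 CPM per kilobase (SD, n = 3), followed by *Nrap* with 201.1 ± 16.8, *Tmod1* with 92.5 ± 6.87 and *Lmod3* with 70.7 ± 6.64. With the longest transcript as the length, the WT ranges of these 4 did not overlap. *Tmod4* (21.9 ± 2.2), *Nebl* (18.2 ± 1.90), *Tmod3* (17.7 ± 0.962) and *Lasp1* (16.5 ± 1.46) followed, and within this group each overlapped its neighbour in the order. *Lmod1* (2.50 ± 0.317), *Tmod2* (0.873 ± 0.0964) and *Neb* (0.309 ± 0.104) were lowest, with no overlap between neighbours. In A178D hearts the mean of *Neb* rose to 0.709 CPM per kilobase and ranked 10 of 11, above *Tmod2* with 0.698. *Lasp1* ranked 7 by its mean, before *Tmod3*. Both pairs overlapped, with *Neb* from 0.441 to 0.946 and *Tmod2* from 0.616 to 0.752. *Neb* was below *Tmod2* in A178D replicates 1 and 4, and *Lasp1* was below *Tmod3* in A178D replicates 1 and 2. With the merged exons of all transcripts as the length, *Tmod4* (16.0), *Nebl* (9.64), *Lasp1* (9.01) and *Tmod3* (6.23) were lower in WT hearts. The means of *Tmod4* and *Tmod3* lay farther from those of *Nebl* and *Lasp1*, which were close together. *Lasp1* came before *Tmod3* there too, and the other ranks were the same. *Tmod1* was at 74.0 on this length, close to *Lmod3* at 70.7. The longest transcript of *Tmod3* has no coding part in the annotation, so its level per length is less certain.

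The rest of the thin filament was taken from lists written by gene name. Of 14 actin, tropomyosin and troponin genes 13 were tested, and edgeR called 1 higher and 0 lower, with 4 at an unadjusted p under 0.05 and the same calls in DESeq2 and limma-voom. Over all tested genes 2326, or 16.7%, had an unadjusted p under 0.05. The median log2 fold change of the list was 0.02, beside 0.0023 over all tested genes. The gene called was *Acta1*, the skeletal muscle actin, at 182.5, 72.0 and 69.3 CPM in WT replicates 1, 3 and 4 and at 811.0, 495.5, 706.0 and 671.8 CPM in A178D replicates 1 to 4. The rise was 2.64 on the log2 scale (standard error 0.29, adjusted p = 0.000651 in edgeR), seen in all 4 A178D hearts, and it was called in all 7 fits without a heart. *Actc1*, the cardiac actin and the gene of the list highest by CPM, had 13840 ± 124 CPM in WT (SD, n = 3) and 15124 ± 754 CPM in A178D (SD, n = 4), with a log2 fold change of 0.13 (standard error 0.06) that was not called and was 0.04 with the offsets. The 4 tropomyosin genes ranged from -0.09 to 0.02 and none of them was called.

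Among 21 Z-disc genes, all tested, edgeR called 1 higher and 0 lower, and 8 had an unadjusted p under 0.05. DESeq2 called 2 higher and 1 lower, and limma-voom 1 and 0. The median of the list was 0.09. *Myot*, which encodes the actin-binding Z-disc protein myotilin, had 88.3, 70.5 and 92.1 CPM in WT replicates 1, 3 and 4 and 192.6, 151.7, 116.6 and 138.0 CPM in A178D replicates 1 to 4, with no overlap. It was higher by 0.84 on the log2 scale (standard error 0.14, adjusted p = 0.00875 in edgeR), and it was not called without WT replicate 3 (0.73). *Ttn* was the Z-disc gene highest by CPM, with its values given above, but not per kilobase, where it stood at 62.3 and *Tcap* at 2606 on average in WT. *Tcap*, which encodes telethonin, had 2470.5 ± 190.3 CPM in WT (SD, n = 3) and 2706 ± 263 CPM in A178D (SD, n = 4), with a log2 fold change of 0.13 (standard error 0.08) that was not called. Without A178D replicate 4 or WT replicate 1 it was 0.07, and with the offsets 0.01.

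The list of actin filament ends and turnover held 24 genes, of which 23 were tested. It comprises capping proteins of the barbed end, formins and other assembly factors, and severing and monomer-binding proteins. EdgeR called 1 of them higher and 0 lower, with 5 at an unadjusted p under 0.05 and the same calls in DESeq2 and limma-voom, and the median was 0.01. *Twf2*, a twinfilin that binds actin monomers and barbed ends, stood at 198.9 ± 21.5 CPM in WT (SD, n = 3) and at 261.1 ± 28.7 CPM in A178D (SD, n = 4). This rise of 0.39 on the log2 scale (standard error 0.10, adjusted p = 0.0479 in edgeR) was seen in all 4 A178D hearts. It was called in 2 of the 7 fits without a heart, and was lost without WT replicate 3 (0.39), WT replicate 4 (0.32), A178D replicate 1 (0.34), A178D replicate 2 (0.43) or A178D replicate 4 (0.35), and also with the length and GC offsets (0.31). The gene of the list highest by CPM, *Gsn*, had a log2 fold change of 0.10 (standard error 0.08), not called, with values from 0.04 without WT replicate 4 to 0.21 without WT replicate 3, and 0.07 with the offsets.

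*Neb* and *Lmod3* are also known as genes of nemaline myopathy, a muscle disease with rods of Z-disc material. A list of 12 further genes linked to that disease or to the kelch proteins that stabilise nebulin and leiomodin, all tested, had 1 call in edgeR, *Acta1*, 4 at an unadjusted p under 0.05 and a median of 0.05. DESeq2 called 2 of them higher and limma-voom 1. The highest by mean CPM over the 7 hearts, *Myo18b*, had a log2 fold change of 0.05 (standard error 0.07) and was not called, with values from 0.0064 without WT replicate 4 to 0.08 without WT replicate 1 or A178D replicate 3, and 0.14 with the offsets. Of 7 genes for SRF, MEF2 and their cofactors, which drive many sarcomere genes, 0 were called in edgeR, DESeq2 or limma-voom, and 1 had an unadjusted p under 0.05 in edgeR. Their median was -0.05, and *Srf*, here the highest by mean CPM, had 0.07 (standard error 0.11), not called. The sign for *Srf* turned without A178D replicate 4 (-0.04) and without WT replicate 4 (-0.02), and the value was 0.15 without WT replicate 1, 0.12 without A178D replicate 3 and 0.03 with the offsets.

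Markers of the other cells of the ventricle were read in the same way. Of the 9 ventricular cardiomyocyte markers 1 was called higher, *Mybpc3*, at 0.30 (standard error 0.06, adjusted p = 0.023 in edgeR), and it was lost without WT replicate 3 (0.32), WT replicate 4 (0.26), A178D replicate 1 (0.30) or A178D replicate 3 (0.32), or with the replicate block (0.31). *Myh6* had -0.11 (standard error 0.06), and -0.05 with the offsets, and was not called. *Nppa* was highest by CPM in the atrial list and the 1 called of its 4 tested, with 1.31 (standard error 0.24). It was lost without WT replicate 3 (1.33), WT replicate 4 (1.05) or A178D replicate 1 (1.22). The paper counts *Nppa* among the foetal genes induced in A178D hearts. Without *Nppa* the atrial markers summed to between 101.5 and 124.3 CPM in a heart. Of 7 fibroblast markers *Col3a1* was called higher, with 0.62 (standard error 0.14), and was lost without WT replicate 3 (0.67) or A178D replicates 1 (0.63), 2 (0.60) or 3 (0.63), whereas *Dcn*, the highest by CPM, had 0.0026 (standard error 0.08) and turned sign without WT replicate 1 (-0.07) or A178D replicate 1 (-0.05), and was 0.06 without WT replicate 4 and 0.07 with the offsets. Of the 7, 6 lay above 0 and 4 had an unadjusted p under 0.05, and DESeq2 called 2 of them higher and limma-voom 1. The fibroblast markers summed to between 1050 and 1161 CPM in WT hearts and between 1236 and 1365 CPM in A178D hearts, without overlap. EdgeR called 0 of 7 endothelial and 0 of 7 macrophage markers, of which 1 and 4 had an unadjusted p under 0.05, where the share over all tested genes was 16.7%. DESeq2 called 1 and 2 of them higher and limma-voom 0. Above 0 lay 4 of the 7 endothelial markers (median 0.08) and 6 of the 7 macrophage markers (median 0.20). Their genes highest by CPM, *Kdr* and *Csf1r*, had 0.08 (standard error 0.11) and 0.09 (standard error 0.09), whereas per kilobase *Pecam1* and *C1qa* were highest in WT. The value for *Kdr* ranged from -0.04 without WT replicate 4 to 0.27 without WT replicate 1 and was 0.13 with the offsets, that for *Csf1r* ranged from 0.03 without WT replicate 1 to 0.19 without WT replicate 3, and neither gene was called in these fits.

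The genes most like *Neb* and *Tmod3* were found by the root mean square difference of log2 CPM, each gene taken as its deviation from its own WT mean, over the 7 libraries and among 12211 other genes that averaged 50 counts or more. For *Neb* they were *Cntn2* (0.31), *Ahsg* (0.42), *Nlrc3* (0.42), *Depdc7* (0.43) and *Nrn1* (0.44), where the median over the genes compared was 1.01. *Cntn2* was itself read at 3.56 CPM in WT and 9.08 CPM in A178D on average. For *Tmod3* they were *Mtus2* (0.03), *Pinx1* (0.03), *Jak1* (0.04), *Gprc5b* (0.04) and *Xpo6* (0.05), beside a median of 0.28. *Mtus2* went from 251.1 to 204.2 CPM and *Jak1* from 242.2 to 194.5 CPM. No other gene of the 9 was among them. The difference was taken over the A178D hearts too, so like shifts of these genes follow from the way they were chosen.

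Promoter windows of RefSeq (GRCm38.p6) were searched in the 250 bases before the start of transcription. The table held 9 windows for 6 of the 9 genes, *Nebl* with several, and *Neb*, *Lmod3* and *Tmod3* had no entry. Both strands were searched for the E-box, taken as CANNTG, and for the MCAT motif, taken as CATTCC. The TATA box (searched as TATAAA), the CArG box and the MEF2 site were searched in the same way. CANNTG was in 6 of the 9 windows, and in 66.2% of all 32851 windows of the table. CATTCC was in 2 of the 9 (12.6% of all), the CArG box in 1, a window of *Nebl* whose start lies inside the gene (1.47%), and the MEF2 site (2.92%) and TATAAA (12.4%) in 0. These matches describe the letters only, and say nothing about binding. The windows of the members highest per length and of *Lmod1*, called lower, are shown 5′ to 3′ and end at the base before the start, with CANNTG and CATTCC in capitals on either strand, and no match overlaps another. They lie at chr6:24597521-24597770 (plus strand, *Lmod2*), chr19:56390039-56390288 (minus strand, *Nrap*), chr4:46038972-46039221 (plus strand, *Tmod1*) and chr1:135324563-135324812 (plus strand, *Lmod1*).
Lmod2: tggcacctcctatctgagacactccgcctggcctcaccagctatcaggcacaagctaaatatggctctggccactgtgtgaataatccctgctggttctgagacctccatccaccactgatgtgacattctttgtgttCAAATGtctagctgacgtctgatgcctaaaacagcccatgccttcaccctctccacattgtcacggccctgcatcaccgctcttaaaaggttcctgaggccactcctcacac
Nrap: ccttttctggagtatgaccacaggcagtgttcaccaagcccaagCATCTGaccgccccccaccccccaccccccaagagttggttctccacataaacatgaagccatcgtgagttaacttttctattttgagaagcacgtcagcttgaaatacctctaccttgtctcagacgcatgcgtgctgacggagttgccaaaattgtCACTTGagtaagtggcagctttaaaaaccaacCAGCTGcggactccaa
Tmod1: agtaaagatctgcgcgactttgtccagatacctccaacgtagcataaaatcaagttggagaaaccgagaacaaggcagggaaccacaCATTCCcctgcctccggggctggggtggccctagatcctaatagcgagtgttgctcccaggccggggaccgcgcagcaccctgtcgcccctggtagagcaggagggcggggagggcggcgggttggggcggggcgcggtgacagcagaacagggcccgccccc
Lmod1: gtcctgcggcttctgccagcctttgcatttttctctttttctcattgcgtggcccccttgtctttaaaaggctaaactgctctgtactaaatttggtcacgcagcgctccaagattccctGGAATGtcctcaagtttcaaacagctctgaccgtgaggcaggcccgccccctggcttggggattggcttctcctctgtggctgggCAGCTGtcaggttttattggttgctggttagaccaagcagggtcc

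In these letters *Lmod2* has 1 CANNTG match and *Nrap* has 3, the nearest to the start at position -16. *Tmod1* has CATTCC at position -163 and no CANNTG. Its RefSeq start lies inside the gene as annotated in GENCODE, so this whole window is downstream of the GENCODE start given above. *Lmod1* has the reverse complement of CATTCC at position -130 and CANNTG at position -45. Positions count back from the start, with -1 the last base shown.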

How the data were processed

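Stranded poly(A) libraries from 3 WT and 4 A178D left ventricles were sequenced from both ends. The authors deposited raw counts per Ensembl gene. The submitters' processing notes name bcl2fastq 2.18.0.12, HISAT2 2.1.0, SAMtools 1.6, DESeq2 1.26.0 and GRCm38, while the counting program and the annotation release are not given in the sources used here. Of 21257 entries, 442 with at least 30 counts formed 219 sets with identical counts. Each set was reduced to 1, as were repeated entries with fewer counts, which left 20927. Odd numbers made up 17.6 to 20.3% of counts from 1 to 20, so most fragments appear to have been counted once for each end, and low counts stand for fewer molecules. Names, positions and lengths came from GENCODE M21.

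Genes that reached 10 counts in 3 or more libraries were fitted with edgeR 4.0.16 (R 4.3.3, TMM, quasi-likelihood test, no covariate), and Benjamini-Hochberg adjusted p under 0.05 was a call. Alternatives used DESeq2 1.42.0, limma 3.58.1 and mgcv 1.9.3 (length and GC offsets), other filters, a replicate block, halved counts, the table as deposited and each heart left out. The fits were tested on simulated data.

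The members and gene lists were chosen with earlier results of these data known. Named are all members, *Lmod1*, *Tmod2*, *Ttn* and *Tcap*, from each list the gene with the highest mean CPM and the called genes (at most 6), and the 5 genes most like each called member.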

Additional observations from a re-analysis of the deposited data

Results flagged for a closer look

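The 4 A178D hearts were searched, for each of 34 named genes, for a heart whose gap to its nearest neighbour is a larger share of the group's range than Dixon's critical value. The 3 WT hearts are too few for it. Chance flags about 1 in 20 such groups, and 6 were found. *Nebl* was low in A178D replicate 4, at 86.1 CPM against 141.2 to 146.2 in the other A178D hearts and 134.3 to 164.0 in WT. *Nrap* was low in A178D replicate 3, at 1117 CPM against 1251 to 1262, and within the WT range. *Myo18b* was low in the same heart, at 416.7 CPM against 460.0 to 463.5, and within the WT range of 411.3 to 455.5. *Mybpc2* was high in A178D replicate 1, at 34.7 CPM against 31.2 to 31.8, with 28.6 to 31.5 in WT. *Dcn* was high in that heart too, at 646.3 CPM against 554.9 to 562.3, with 519.5 to 623 in WT. *Col3a1* was high in A178D replicate 2, at 323.8 CPM against 302.9 to 305.8, which is a small gap in a narrow group. The WT hearts had 140.55 to 248.5 CPM of *Col3a1*.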

How the results depend on the processing

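In 130 of 144 alternative fits of the 9 genes, 16 per gene, the log2 fold change kept its sign and its side of the threshold, and in 9, of *Neb* and *Tmod3*, the call was lost. The sign turned in 5. *Tmod1* went from 0.0035 to -0.0175 with the length and GC offsets, and ranged from -0.0543 to 0.0372 without single hearts, with -0.0543 without WT replicate 1, -0.0168 without A178D replicate 1 and -0.0061 without A178D replicate 3. *Tmod4* ranged from -0.134 to 0.0025 without single hearts, the latter its value without WT replicate 3.

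Against 145 genes called higher and 182 lower, DESeq2 called 306 and 380, an adjusted p under 0.01 left 24 and 40, and the offsets gave 205 and 281. Without single hearts 22 to 215 were higher and 31 to 238 lower, lowest without WT replicate 3 and highest without WT replicate 1. Without WT replicate 4 they were 40 and 42, without A178D replicate 1 40 and 50, without A178D replicate 2 101 and 115, and without A178D replicate 3 78 and 112. Of the 9 genes, 0 to 1 were called higher and 0 to 1 lower without single hearts, and 0 and 0 at an adjusted p under 0.01. Without A178D replicate 4, 154 genes were called higher and 215 lower over all tested genes. The cause of these shifts was not tested.

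Over all tested genes, hearts with the same replicate number did not deviate together (correlations 0.0031, -0.04 and -0.04). This cannot tell whether the numbers pair the hearts for some of the genes. With the replicate block 124 genes were higher and 147 lower, and of the 9 genes 1 was called higher and 0 lower, as *Tmod3* (-0.33) was not called. Among the context genes the block also ended the calls of *Cnn1* (-0.85) and *Mybpc3* (0.31). With deviations from the 7-library mean, 3 of the 5 genes most like *Neb* and 4 of the 5 most like *Tmod3* were shared. The lowest count of any of the 9 genes in a heart was 236, for *Neb* in WT replicate 1.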
